A study of Mus musculus with 8 samples.

Results

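Oxidative phosphorylation in the liver was described through the nuclear genes that encode subunits of respiratory chain complexes I to V. Members were taken by the gene name on the array: Nduf names of the a, b, c, s and v series, Sdha to Sdhd, names starting with Uqcr, Cox names from Cox4 to Cox8 followed by a, b or c, and names starting with Atp5. The rule found 82 of the 27218 named genes on the array, and 80 of them passed the filter on dim probes. The 80 tested genes comprised 36 named for complex I, 4 for complex II, 8 for complex III, 14 for complex IV and 18 for complex V. Cox7b2 and Cox8c, isoforms known from testis, were not well above background on both arrays of any group. The array has no probe named Ndufa4l2.

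Liver RNA from male C57Bl/6J mice aged 14 weeks was measured on 8 single-colour Agilent arrays, 2 in each of 4 diet groups, after a fast of 4 h. Each group is named by the diet of the dam, then the diet after weaning. VAD_VAD mice had a defined low fat diet without sufficient vitamin A in both periods, with 12% of energy from fat. BD_HF mice were born to dams kept on a standard breeder diet, and after weaning ate a diet in which fat supplied 60% of the energy (high fat). LF_HF mice ate the same high fat diet after dams that were switched at embryonic day 10.5 to a low fat diet with enough vitamin A. LF_LF mice had that low fat, vitamin A sufficient diet (12% of energy from fat) in both periods. The defined diets of the VAD_VAD, LF_HF and LF_LF dams all began at embryonic day 10.5, and all dams had the breeder diet before that. Nothing in the labels says that the 2 samples of a group came from separate animals, so p-values measure the spread between samples, which may be technical.

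Complex I oxidises NADH and complex II oxidises succinate, and both pass electrons to ubiquinone. Complex III hands them on to cytochrome c, complex IV (cytochrome c oxidase) reduces oxygen, and complex V uses the resulting proton gradient to make ATP. Liver is rich in mitochondria, which there also house fatty acid oxidation, ketogenesis and the first steps of urea synthesis. Most complexes combine subunits made in the nucleus with a few made from mitochondrial DNA, and complex II is wholly nuclear. Cytochrome c oxidase has subunits with a liver-type isoform and a heart and muscle isoform, and these pairs are Cox6a1 and Cox6a2, Cox7a2 and Cox7a1, and Cox8a and Cox8b.

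Some names caught by the rule are not plain subunits. Ndufa4, long counted with complex I, is known as a subunit of complex IV, and Cox7a2l is a factor that joins complexes into supercomplexes. Atp5sl and Atp5s carry the current symbols Dmac2 and Dmac2l; the first is known as an assembly factor of complex I, the second as a coupling factor linked to ATP synthase. Atp5c1-ps is named as a pseudogene, and its probe may share signal with Atp5c1.

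Values are log2 processed signals with the 75th percentile of the array set to 0, and a difference of 1 is a 2-fold change. A gene was said to pass when its limma adjusted p (Benjamini-Hochberg over the 17267 genes tested) was under 0.05. LF_HF replicate 1 stood apart from the other arrays before any comparison was made. It had 2764 outlier spots against 66 to 365 elsewhere, and 82.18% of its probes were well above background against 56.49% to 64.16%. The correlation between replicates over genes was 0.919 in LF_HF and between 0.977 and 0.992 in the other groups. The main differences that involve LF_HF are therefore also given without this array, which leaves LF_HF with 1 array that is assumed to vary like the other groups. Hepatocyte markers were well above background on every array where they had a value, with all 10 measured on 7 arrays and 9 on BD_HF replicate 2. In bulk liver RNA, fewer cells of a type and less RNA per cell cannot be told apart.

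No respiratory chain gene passed this test with all 8 arrays. In VAD_VAD against LF_LF, 0 of 80 members passed with limma, where 0.631% of all genes passed. An unadjusted p under 0.05 was found for 3 of 80 members and for 1774 of the 17267 genes tested. In LF_HF against LF_LF, 0 passed, against 2.50% of all genes, and 2 members and 2873 of all genes had an unadjusted p under 0.05. In BD_HF against LF_HF both counts were 0, while 0.00579% of all genes passed and 930 had an unadjusted p under 0.05. In BD_HF against LF_LF, 0 passed, against 1.52% of all genes, and 3 members and 2210 of all genes had an unadjusted p under 0.05. Once LF_HF replicate 1 was left out, 2 members passed in VAD_VAD against LF_LF, 3 in LF_HF against LF_LF, 0 in BD_HF against LF_HF and 3 in BD_HF against LF_LF, all among Cox6a2, Cox8b and Atp5sl, and the shares of all genes passing were then 5.30%, 11.1%, 0% and 9.15%. With all arrays, a moderated F-test over the 4 groups also gave 0 members, against 1.05% of all genes passing after adjustment. Before adjustment, 2 members had an F-test p under 0.05, but the matching share of all genes was not counted, so nothing is read from it. The standard error of a member's difference had a median of 0.41 and ran from 0.32 to 0.65, and the difference was smaller than its own standard error for 44 of 80 members in VAD_VAD against LF_LF, 72 in LF_HF against LF_LF, 68 in BD_HF against LF_HF and 62 in BD_HF against LF_LF.

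**Figure D1:**
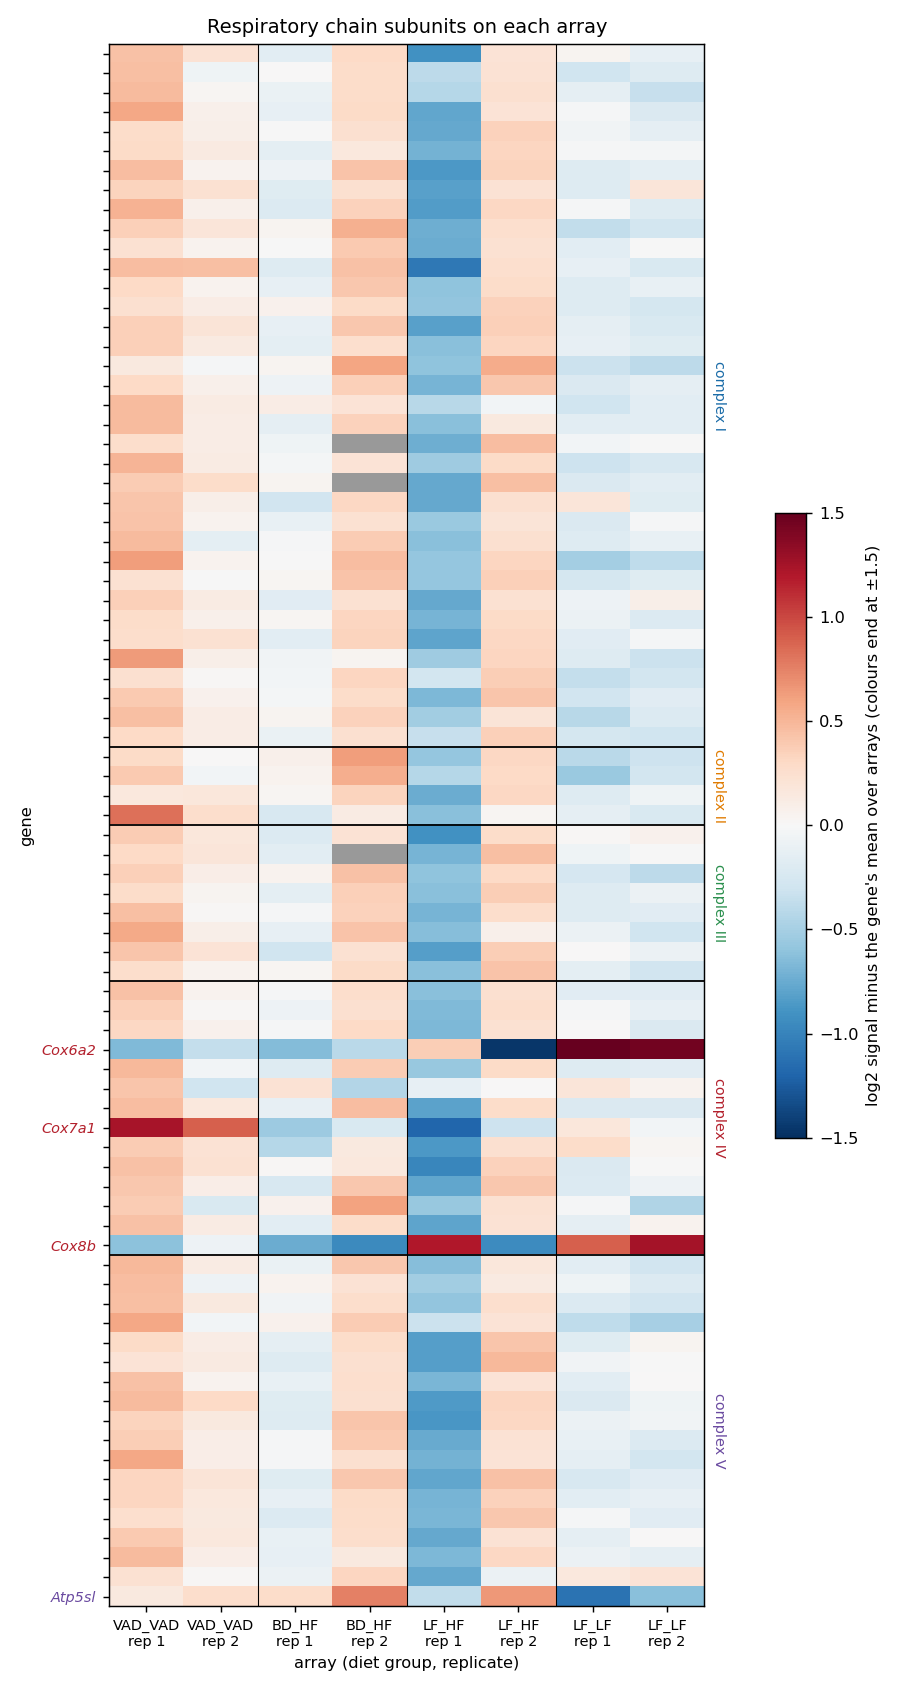
Each row is a gene of complexes I to V and each column an array; colour gives the log2 signal minus the gene's own mean over the 8 arrays, and grey marks a missing value. Only the rows named here carry a label. Most rows share the same column colours, with LF_HF replicate 1 low and VAD_VAD replicate 1 high, while Cox6a2, Cox8b, Cox7a1 and Atp5sl have rows of their own.

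What the members shared was a shift of whole arrays. LF_HF replicate 1 gave the lowest value for 70 of the 77 members measured on every array, or 90.9%, and for 39.2% of all such genes. VAD_VAD replicate 1 gave the highest value for 44 of the 77 members, or 57.1%, and for 18.7% of all such genes. Relative to each gene's mean, the median member stood at 0.38 and 0.10 in VAD_VAD, -0.10 and 0.29 in BD_HF, -0.69 and 0.28 in LF_HF, and -0.16 and -0.17 in LF_LF. The LF_HF replicates were thus further apart than any 2 groups, and those of BD_HF also differed, with replicate 2 higher for 75 of the 77 members measured on both. In VAD_VAD replicate 1 was the higher for 76 of 80 members, by a median of 0.24.

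On the arrays furthest from the rest the 5 complexes moved the same way. On LF_HF replicate 1 their medians lay between -0.70 for complex V and -0.61 for complex II, and on VAD_VAD replicate 1 between 0.34 for complex II and 0.41 for complex IV. Elsewhere they were less uniform: on LF_LF replicate 1 complex II lay at -0.30 and complex IV at -0.02, and on BD_HF replicate 1 complex II lay at 0.05 while the others lay between -0.14 and -0.07. The same medians over 564 tested genes with a mean log2 signal of 6 or more, a band that holds 49 of the members, were 0.33 and 0.14 in VAD_VAD, -0.02 and 0.28 in BD_HF, -0.70 and 0.32 in LF_HF, and -0.17 and -0.16 in LF_LF. Over all 17267 genes tested they were 0.09 and 0.00 in VAD_VAD, 0.01 and 0.07 in BD_HF, -0.27 and 0.05 in LF_HF, and -0.03 and -0.04 in LF_LF. The members therefore lay close to other genes of high signal and away from the median of all genes. Whether the signal level of the genes sets this shift was not tested.

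**Figure D2:**
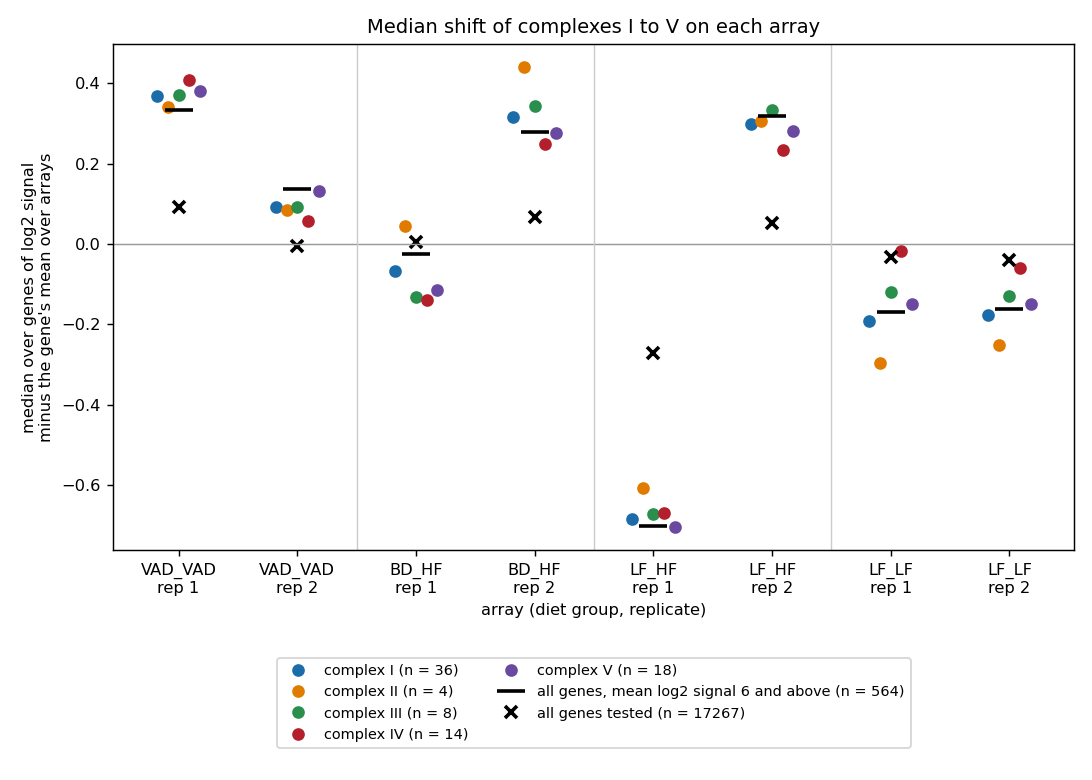
Points give the median deviation from the gene mean (log2) of each complex on each array, bars that of all genes with a mean log2 signal of 6 or more, and crosses that of all genes tested. On LF_HF replicate 1 the 5 complexes and the high-signal genes lie between -0.70 and -0.61, and the cross lies at -0.27.

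Genes at the core of each complex show the common pattern. Ndufs1, the large iron-sulphur subunit that takes electrons early in complex I, read 5.59 and 4.97 in VAD_VAD, 5.10 and 5.50 in BD_HF, 4.49 and 5.35 in LF_HF, and 4.92 and 5.01 in LF_LF. Ndufv1, the subunit that binds NADH, read 6.62 and 6.30 in VAD_VAD, 6.21 and 6.51 in BD_HF, 5.56 and 6.65 in LF_HF, and 5.95 and 6.06 in LF_LF. For both, LF_HF replicate 1 was the lowest array, and the groups overlapped except that both VAD_VAD and both BD_HF arrays exceeded both LF_LF arrays for Ndufv1 and both BD_HF arrays did so for Ndufs1.

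Sdha, the flavoprotein of succinate dehydrogenase, read 4.05 and 3.77 in VAD_VAD, 3.83 and 4.39 in BD_HF, 3.18 and 4.07 in LF_HF, and 3.36 and 3.45 in LF_LF. Sdhb, its iron-sulphur partner, read 5.49 and 5.05 in VAD_VAD, 5.15 and 5.64 in BD_HF, 4.67 and 5.40 in LF_HF, and 4.54 and 4.81 in LF_LF. Both LF_LF arrays lay below both VAD_VAD and both BD_HF arrays for these genes. Sdha and Sdhb gave the largest positive differences of BD_HF over LF_LF after Atp5sl, at 0.71 ± 0.40 (SE, n = 2 arrays per group) for Sdha and 0.72 ± 0.39 for Sdhb, and neither passed (limma adjusted p = 0.545 and 0.522). The 3 probes for Sdha did not share a direction in BD_HF against LF_HF or in VAD_VAD against LF_LF.

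In complex III, Uqcrc2, a core protein, read 6.71 and 6.27 in VAD_VAD, 6.24 and 6.60 in BD_HF, 5.55 and 6.52 in LF_HF, and 6.06 and 6.09 in LF_LF. Uqcrfs1, the Rieske iron-sulphur protein, read 6.21 and 5.72 in VAD_VAD, 5.52 and 6.06 in BD_HF, 4.997 and 5.71 in LF_HF, and 5.55 and 5.33 in LF_LF. VAD_VAD exceeded LF_LF on both arrays for both genes, and the other groups overlapped with LF_LF for Uqcrfs1.

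In complex IV, Cox5a read 8.21 and 7.83 in VAD_VAD, 7.75 and 8.03 in BD_HF, 7.15 and 8.01 in LF_HF, and 7.60 and 7.61 in LF_LF. Cox5b, like Cox5a a small nuclear subunit, read 8.21 and 7.86 in VAD_VAD, 7.77 and 8.09 in BD_HF, 7.18 and 8.11 in LF_HF, and 7.83 and 7.73 in LF_LF. For both, the 2 LF_HF arrays lay on either side of both LF_LF arrays.

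In complex V, Atp5a1, the alpha subunit of the catalytic head, read 7.51 and 7.15 in VAD_VAD, 6.93 and 7.43 in BD_HF, 6.39 and 7.19 in LF_HF, and 6.87 and 6.74 in LF_LF. Atp5b, the beta subunit that carries the catalytic sites, read 8.55 and 8.01 in VAD_VAD, 8.15 and 8.30 in BD_HF, 7.57 and 8.22 in LF_HF, and 8.03 and 7.88 in LF_LF. The 2 VAD_VAD arrays for Atp5b lay on either side of the higher LF_LF array, so those groups overlapped.

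The vitamin A comparison set VAD_VAD against LF_LF, which share the fat content of both diets. Of the 80 members, 76 had a positive difference, and the median was 0.39, beside 0.09 for all genes tested. Medians per complex were 0.41, 0.55, 0.37, 0.32 and 0.38 for complexes I to V in turn, highest for the 4 genes of complex II; differences between complexes were not tested. Within replicate 1 alone, which shares a slide, the member median was 0.55, and within replicate 2 it was 0.26. Both VAD_VAD arrays exceeded both LF_LF arrays for 71 of 80 members, where 32.5% of all genes did so, and lay below both for 2, Cox6a2 and Cox8b, where 25.5% did. Among genes with a mean log2 signal of 6 or more the shares were 93.9% of 49 members and 76.2% of 564 genes. This shift depended on the scaling: with quantile scaling of the same signals the member median was -0.03, and 34 of 80 differences were positive.

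Within that comparison the members kept close together, with 71 of 80 within 0.25 of their median. Atp5s read 0.35 and 0.14 in VAD_VAD, against 0.27 and 0.33 in LF_LF, and was one of 4 members with a negative difference, at -0.06 ± 0.35 (limma adjusted p = 0.968). Cox6a2, Cox8b and Cox6b2 were the others.

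The effect of the diet after weaning was compared between LF_HF and LF_LF, whose dams ate the same diet. With all arrays, 26 of 80 differences were positive and the median was -0.06, beside -0.02 for all genes tested. Medians per complex lay between -0.15 for complex IV and 0.06 for complex II, and between 0.34 and 0.55 for the same complexes without LF_HF replicate 1. The replicates disagreed: the member median was -0.55 within replicate 1 and 0.46 within replicate 2. Without LF_HF replicate 1 it was 0.44, with 75 of 80 differences positive, beside 0.12 for all genes. The remaining LF_HF array exceeded both LF_LF arrays for 74 of 80 members, against 48.9% of all genes. It lay below both for 5, against 35.7%. In the band with a mean log2 signal of 6 or more it exceeded both for 98.0% of 49 members and 84.6% of 564 genes. With all arrays, LF_HF exceeded LF_LF on both arrays for 3 members, or 3.75%, against 20.9% of all genes, and the 3 were Ndufs8, Atp5c1-ps and Atp5sl. It lay below LF_LF on both arrays for 4 of 80, against 21.3% of all genes, and these were Cox6a2, Cox6b2, Cox7a1 and Atp5s. In the same band, 0 of 49 members lay above or below on both arrays, against 11.9% above and 8.16% below for 564 genes. Ndufs8, an iron-sulphur subunit of complex I, read 2.81 and 3.46 in LF_HF, against 2.72 and 2.80 in LF_LF, a difference of 0.37 ± 0.35 (limma adjusted p = 0.651) that was 0.69 without LF_HF replicate 1. Atp5c1-ps read 2.92 and 3.44 in LF_HF, against 2.85 and 2.74 in LF_LF, a difference of 0.38 ± 0.36 (limma adjusted p = 0.653) that was 0.65 without that array.

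The effect of the diet of the dam was compared between BD_HF and LF_HF, which ate the same high fat diet. With all arrays, 77 of 80 differences were positive, with a median of 0.32, beside 0.17 for all genes tested. With quantile scaling these medians were 0.11 and 0.20, so the members then lay below all genes. Medians per complex lay between 0.29 and 0.38, and between -0.26 and -0.05 without LF_HF replicate 1. This direction rested on LF_HF replicate 1: the member median was 0.61 within replicate 1 and 0.04 within replicate 2, and without that array it was -0.15, with 10 of 80 differences positive. BD_HF exceeded LF_HF on both arrays for 1 of 77 members (1.30%), Ndufb5, an accessory subunit of complex I, against 17.4% of all genes, and lay below it on both for 0, against 9.54%. Without LF_HF replicate 1, both BD_HF arrays lay below the remaining LF_HF array for 26 of 77 members, or 33.8%, against 30.6% of all genes. They lay above it for 2, against 34.0%. In the band with a mean log2 signal of 6 or more they lay below it for 47.8% of 46 members and 54.7% of 516 genes. They lay above it there for 0 members and 8.33% of genes. The largest positive differences were those of Atp5s, Ndufa8 and Ndufa6. Atp5s read 0.04 and 0.45 in BD_HF, against -0.64 and 0.04 in LF_HF, a difference of 0.55 ± 0.35, which was 0.20 without LF_HF replicate 1 and -0.21 by a second probe. Ndufa8, an accessory subunit of complex I, read 4.89 and 5.52 in BD_HF, against 4.01 and 5.33 in LF_HF, a difference of 0.54 ± 0.48, and without LF_HF replicate 1 the difference was -0.13. Ndufa6, also accessory to complex I, read 6.05 and 6.54 in BD_HF, against 5.27 and 6.26 in LF_HF, a difference of 0.53 ± 0.41, and 0.03 without LF_HF replicate 1. All 3 had a limma adjusted p of 0.787. Small negative differences, at -0.06 ± 0.38 for Cox6b2 and -0.03 ± 0.55 for Uqcr11, were within their errors (limma adjusted p = 0.953 and 0.983), and were -0.12 and -0.61 without LF_HF replicate 1. Uqcr11, like Ndufb7 and Ndufb9, had no value on BD_HF replicate 2, so its BD_HF mean is that of 1 array.

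BD_HF and LF_LF differ in both diets, and this comparison shares its LF_LF arrays with those of VAD_VAD and LF_HF. Of 80 differences, 71 were positive, with a median of 0.27, beside 0.11 for all genes tested. Medians per complex ran between 0.17 for complex IV and 0.51 for complex II. The member median was 0.05 within replicate 1 and 0.47 within replicate 2. BD_HF exceeded LF_LF on both arrays for 39 of 77 members, or 50.6%, against 34.2% of all genes. It lay below LF_LF on both arrays for 3, Cox6a2, Cox7a1 and Cox8b, against 25.9% of all genes. The share higher was, in the band with a mean log2 signal of 6 or more, 41.3% of 46 members against 56.8% of 516 genes. With quantile scaling the member median was 0.03.

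**Figure D3:**
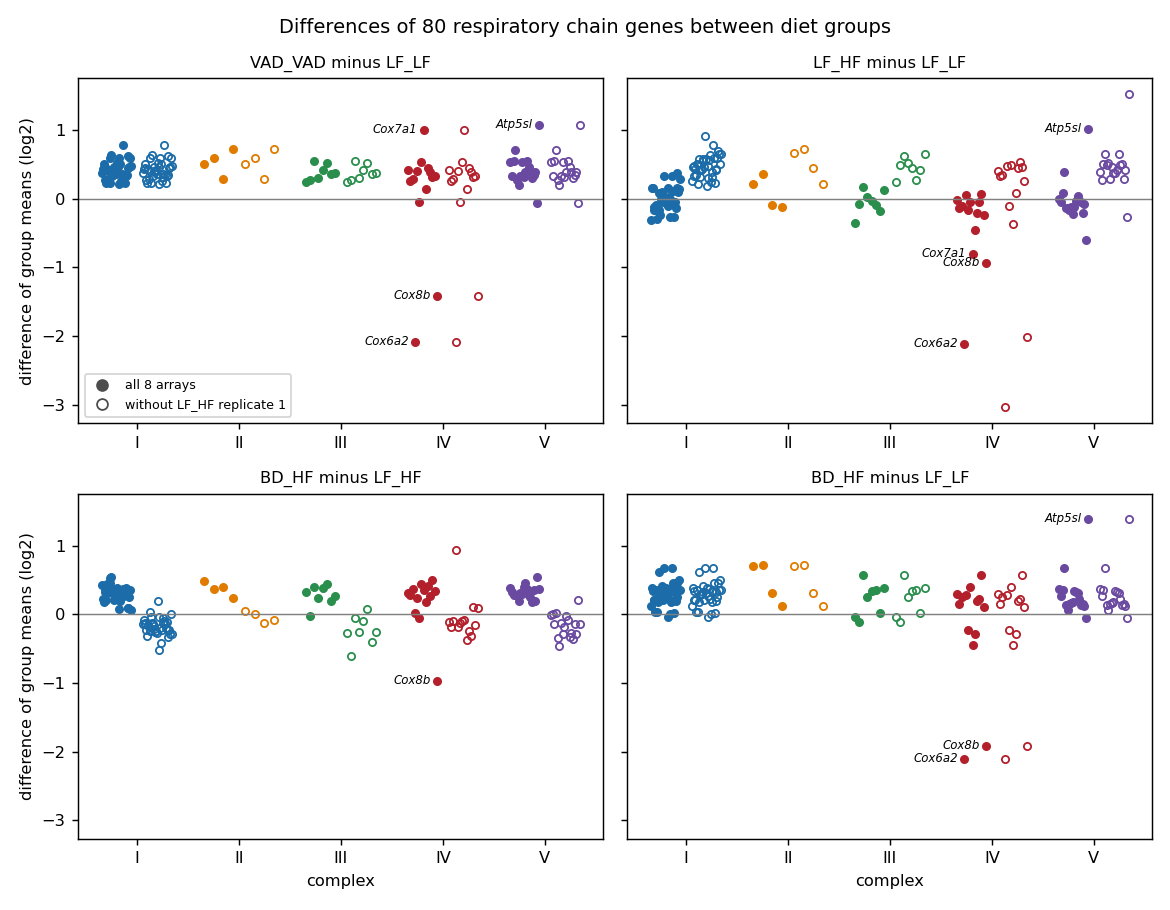
Each point is the difference between group means (log2) of a member, by complex, for the comparison named above each panel; filled points use all 8 arrays and open points leave out LF_HF replicate 1. Filled points centre on 0.32 and open points on -0.15 in BD_HF minus LF_HF. The cloud in VAD_VAD minus LF_LF centres on 0.39, and LF_HF replicate 1 does not enter those differences.

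The members furthest from the rest were the heart and muscle isoforms of cytochrome c oxidase and Atp5sl. Cox6a2, the heart and muscle isoform of subunit VIa, read -2.88 and -2.58 in VAD_VAD, -2.88 and -2.62 in BD_HF, -1.85 and -3.68 in LF_HF, and -0.51 and -0.77 in LF_LF. It was well above background on all 8 arrays, and all 6 arrays of the other diets lay below both LF_LF arrays. The share of all genes with this order was not counted. In single comparisons, 25.5% of all genes lay below both LF_LF arrays in VAD_VAD, 21.3% in LF_HF and 25.9% in BD_HF. The difference of Cox6a2 was -2.09 ± 0.57 in VAD_VAD against LF_LF, or 4.26-fold lower, with a limma adjusted p of 0.228. It was -2.12 ± 0.57 in LF_HF against LF_LF (4.36-fold lower, limma adjusted p = 0.119) and -2.11 ± 0.57 in BD_HF against LF_LF (4.32-fold lower, limma adjusted p = 0.158). Without LF_HF replicate 1 the adjusted p-values were 0.00785, 0.00384 and 0.00561 in the same order, with 5.30%, 11.1% and 9.15% of all genes passing. The LF_HF difference was then -3.04 ± 0.30. Over the settings tried, this difference stayed negative in all 3 comparisons with LF_LF. In BD_HF against LF_HF the difference was 0.01 ± 0.57 (limma adjusted p = 0.992), and 0.93 without LF_HF replicate 1 (limma adjusted p = 0.388).

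Its liver-type counterpart Cox6a1 read 9.76 and 9.51 in VAD_VAD, 9.43 and 9.75 in BD_HF, 8.78 and 9.68 in LF_HF, and 9.46 and 9.23 in LF_LF. These values followed the shift of the other members. The Cox6a2 probe lies at chr7:135349160-135349219 (mm9, minus strand).

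Cox8b, the heart and muscle isoform of subunit VIII and also known from brown fat, was dim in every group. It read -4.89 and -4.34 in VAD_VAD, -5.02 and -5.22 in BD_HF, -3.07 and -5.21 in LF_HF, and -3.37 and -3.02 in LF_LF. Only 4 arrays were well above background: both of LF_LF, VAD_VAD replicate 2 and LF_HF replicate 1. Both BD_HF arrays were not well above background, so only a bound can be given. Measured from the LF_LF mean, the gene was at least 3.43-fold lower in BD_HF (limma adjusted p = 0.259). This bound does not include the error between arrays. Its difference was -1.42 ± 0.65 in VAD_VAD against LF_LF (limma adjusted p = 0.526) and -0.94 ± 0.65 in LF_HF against LF_LF (limma adjusted p = 0.515). Without LF_HF replicate 1 the limma adjusted p-values against LF_LF were 0.0395 in VAD_VAD and 0.0115 in BD_HF. The remaining LF_HF array was not well above background, and on that array alone the gene was at least 3.19-fold lower than the LF_LF mean. The LF_HF array left out read -3.07, within the range of LF_LF. On that array, tested genes with a mean log2 signal under 0 had a median deviation of 0.57 from their means. The value is therefore not read as a level like that of LF_LF. Between BD_HF and LF_HF the only array well above background was LF_HF replicate 1, and no fold is given. Cox8a, the liver-type counterpart, read 7.83 and 7.51 in VAD_VAD, 7.23 and 7.66 in BD_HF, 6.61 and 7.61 in LF_HF, and 7.25 and 7.44 in LF_LF, with every group but VAD_VAD overlapping LF_LF.

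Cox7a1, the heart and muscle isoform of subunit VIIa, departed from Cox6a2 and Cox8b in VAD_VAD, where it was higher than in LF_LF, and had a mean below that of LF_LF in both high fat groups, as they did. It read 3.22 and 2.89 in VAD_VAD, 1.44 and 1.76 in BD_HF, 0.81 and 1.69 in LF_HF, and 2.16 and 1.95 in LF_LF. Both VAD_VAD arrays were the highest of the 8, and both arrays of each high fat group lay below both LF_LF arrays. Its difference was 1.00 ± 0.39 in VAD_VAD against LF_LF (limma adjusted p = 0.427), -0.81 ± 0.39 in LF_HF against LF_LF (limma adjusted p = 0.350, and -0.37 without LF_HF replicate 1) and -0.45 ± 0.39 in BD_HF against LF_LF (limma adjusted p = 0.734). In BD_HF against LF_HF it was 0.36 ± 0.39 (limma adjusted p = 0.791), and -0.08 ± 0.30 without LF_HF replicate 1. It had the smallest F-test p of these genes, 0.00932 before and 0.184 after adjustment. Cox7a2, the liver-type counterpart, read 7.30 and 7.14 in VAD_VAD, 6.49 and 7.07 in BD_HF, 6.06 and 7.16 in LF_HF, and 7.20 and 6.96 in LF_LF. Its groups overlapped in all 4 comparisons.

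**Figure D4:**
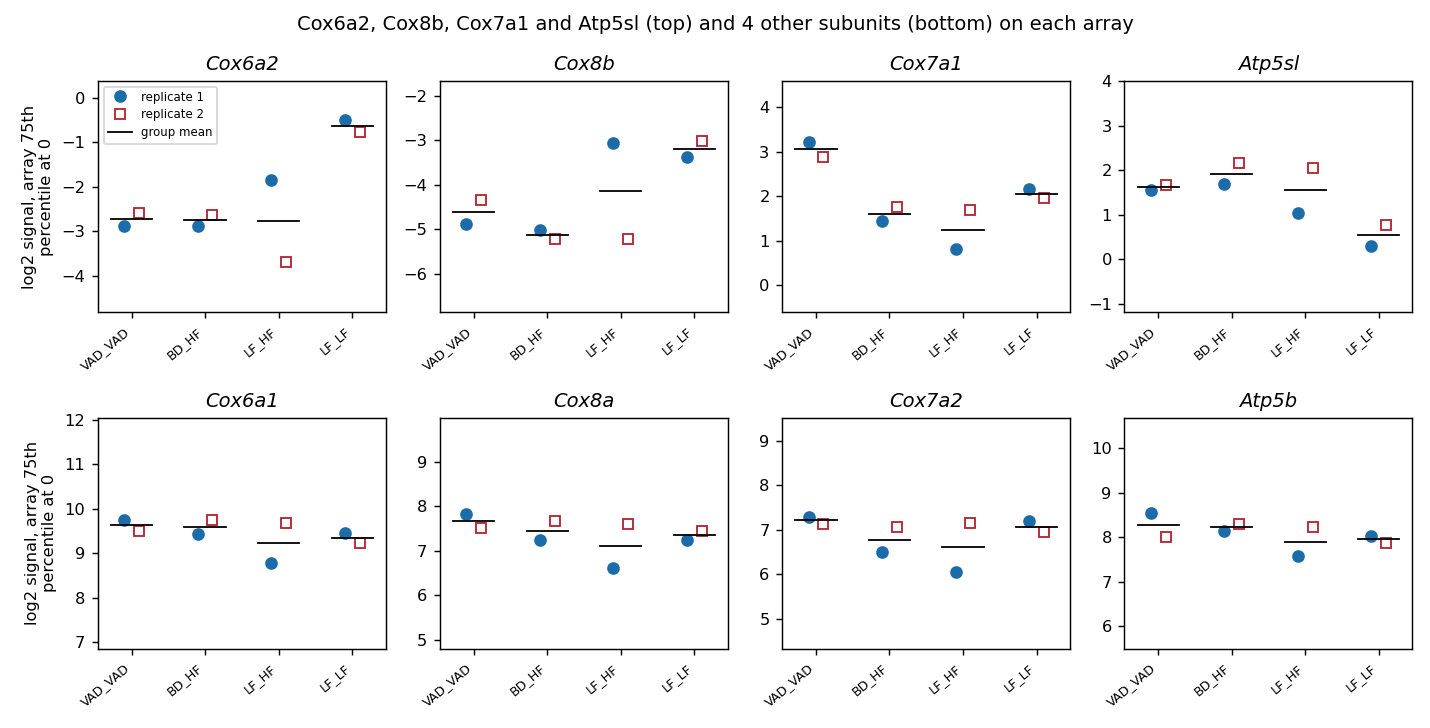
Log2 signal (array 75th percentile at 0) of Cox6a2, Cox8b, Cox7a1 and Atp5sl in the top panels and of Cox6a1, Cox8a, Cox7a2 and Atp5b in the bottom panels, by diet group; every panel spans the same height, and lines are means of 2 arrays. Cox6a2 lies at -0.51 and -0.77 in LF_LF and at -1.85 or lower on every other array, and Cox7a1 at 2.89 or higher in VAD_VAD only; Cox8b was well above background on 4 of its 8 arrays.

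Sequences are shown for members of these isoform pairs, which take the same place in the enzyme, because the heart and muscle ones lay furthest from the shared shift. The single Cox7a1 probe spans an interval of 612 bases at chr7:30970337-30970948 (mm9, plus strand) although it is 60 bases long, so its bases come from more than 1 block of the genome.
Cox7a1 probe: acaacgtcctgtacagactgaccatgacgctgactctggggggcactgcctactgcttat

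The 250 bases before the annotated start were read from RefSeq (GRCm38.p6) and searched on both strands for the letters of 5 motifs. These were NRF1 (GCGCA and GCGC with any base between them) and CCGGAAG (ETS factors such as GABP), known from promoters of respiratory genes, TNAAGGTCA (estrogen-related receptors), MEF2 (CTA and TAG with any 4 bases between them) and CAGCTG (an E-box used in muscle). A promoter was found for 69 of the 82 members, Cox6a2 not among them, and for 27025 genes in all, and the first entry was used where a gene had several. NRF1 letters occurred in 12 of 69 members (17.4%) and in 3.86% of all genes, and ETS letters in 11 of 69 (15.9%) and 7.05%. The remaining motifs were found in 2 of 69 members (2.9%) and 1.14% of all genes for TNAAGGTCA, 1 (1.45%) and 3.23% for MEF2, and 6 (8.7%) and 12.8% for CAGCTG. By complex, NRF1 letters were found in 6 of 32 promoters of complex I, 2 of 3 of complex II, 0 of 5 of complex III, 1 of 13 of complex IV and 3 of 16 of complex V. The complex IV promoter was that of Cox6a1, with matches at 2 places and an ETS match near the start. Capitals mark the matches below.
Cox6a1, chr5:115348959-115349208, minus strand: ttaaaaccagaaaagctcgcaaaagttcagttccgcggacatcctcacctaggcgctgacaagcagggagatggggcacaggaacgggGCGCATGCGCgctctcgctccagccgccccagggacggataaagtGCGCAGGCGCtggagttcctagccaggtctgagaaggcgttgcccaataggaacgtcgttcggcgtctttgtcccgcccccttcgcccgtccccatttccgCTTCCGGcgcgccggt
Cox7a1, chr7:30183921-30184170, plus strand: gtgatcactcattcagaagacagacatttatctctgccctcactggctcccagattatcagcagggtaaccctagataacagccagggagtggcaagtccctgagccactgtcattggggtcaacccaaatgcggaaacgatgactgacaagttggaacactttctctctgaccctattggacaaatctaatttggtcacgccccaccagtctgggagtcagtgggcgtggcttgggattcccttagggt
Cox7a2, chr9:79759854-79760103, minus strand: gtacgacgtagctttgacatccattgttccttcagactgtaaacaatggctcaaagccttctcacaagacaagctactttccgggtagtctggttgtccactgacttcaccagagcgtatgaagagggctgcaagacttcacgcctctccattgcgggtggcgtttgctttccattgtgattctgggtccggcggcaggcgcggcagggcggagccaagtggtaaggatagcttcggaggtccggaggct
Cox8b, chr7:140900447-140900696, minus strand: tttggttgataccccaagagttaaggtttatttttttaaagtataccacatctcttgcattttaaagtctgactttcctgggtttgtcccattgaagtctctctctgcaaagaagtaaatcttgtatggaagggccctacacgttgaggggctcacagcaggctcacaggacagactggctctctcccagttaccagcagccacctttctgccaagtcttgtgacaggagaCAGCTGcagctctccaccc
Cox8a, chr19:7217617-7217866, minus strand: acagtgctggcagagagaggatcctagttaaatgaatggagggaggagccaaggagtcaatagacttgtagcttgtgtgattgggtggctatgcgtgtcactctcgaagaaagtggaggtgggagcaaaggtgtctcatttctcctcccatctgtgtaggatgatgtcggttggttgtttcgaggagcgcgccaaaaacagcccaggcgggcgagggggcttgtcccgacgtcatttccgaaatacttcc
Of these 5 windows, Cox8b held CAGCTG close to its start, and Cox7a1, Cox7a2 and Cox8a held none of the 5 motifs. A match is a run of letters and not a measured site, and the letters were searched in this window alone.

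Atp5sl was higher in every other diet than in LF_LF. It read 1.55 and 1.67 in VAD_VAD, 1.68 and 2.16 in BD_HF, 1.04 and 2.06 in LF_HF, and 0.30 and 0.78 in LF_LF. No array of another diet fell below the LF_LF arrays, an order not counted over all genes. The difference was 1.07 ± 0.43 in VAD_VAD against LF_LF (2.1-fold, limma adjusted p = 0.444), 1.01 ± 0.43 in LF_HF against LF_LF (2.01-fold, limma adjusted p = 0.294) and 1.38 ± 0.43 in BD_HF against LF_LF (2.6-fold, limma adjusted p = 0.215). Without LF_HF replicate 1, the LF_HF difference was 1.52 ± 0.34 (limma adjusted p = 0.0386) and the BD_HF one passed (limma adjusted p = 0.0327), while that of VAD_VAD did not (limma adjusted p = 0.0858). A second, dimmer probe for Atp5sl gave differences of the same sign but of 0.14 in VAD_VAD, 0.32 in LF_HF and 1.22 in BD_HF, so its agreement was closest for BD_HF. In BD_HF against LF_HF the difference was 0.37 ± 0.43 (limma adjusted p = 0.792), and -0.14 without LF_HF replicate 1.

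None of the other partners and isoforms passed in any comparison. Cox6b1 read 4.83 and 4.30 in VAD_VAD, 4.15 and 4.72 in BD_HF, 3.78 and 4.63 in LF_HF, and 4.15 and 4.17 in LF_LF. Cox6b2, its testis isoform, read 0.21 and -0.51 in VAD_VAD, 0.01 and -0.65 in BD_HF, -0.33 and -0.20 in LF_HF, and -0.03 and -0.16 in LF_LF. The lowest and the highest Cox6b2 value came from replicates of VAD_VAD and BD_HF, and all groups overlapped except LF_HF and LF_LF. Cox7b, a further small subunit of cytochrome c oxidase, read 7.54 and 7.24 in VAD_VAD, 6.90 and 7.54 in BD_HF, 6.36 and 7.54 in LF_HF, and 6.94 and 7.06 in LF_LF. Ndufa4 read 6.64 and 6.53 in VAD_VAD, 6.12 and 6.55 in BD_HF, 5.49 and 6.52 in LF_HF, and 6.11 and 6.49 in LF_LF. Both genes had LF_HF replicate 1 as their lowest array, as most members did.

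Summed markers of skeletal and heart muscle were not highest in LF_LF, whereas Cidea, a brown fat marker, was. Of the 10 skeletal muscle markers 4 to 6 were well above background on an array, and their summed linear signal, in units of the array's 75th percentile, was 0.90 and 0.67 in VAD_VAD, 0.74 and 0.55 in BD_HF, 2.92 and 0.71 in LF_HF, and 0.60 and 0.53 in LF_LF. Ckm, Myh4 and Pvalb were well above background on LF_HF replicate 1 only, and Mb on no array. Dim genes as a class read high on LF_HF replicate 1. For 9481 tested genes with a mean log2 signal under 0, the median deviation was 0.57 there. It lay between -0.18 and 0.02 on the other arrays. Whether this raised the dim markers was not tested. Of the 6 heart markers 3 or 4 were well above background, with sums of 0.46 and 0.57 in VAD_VAD, 0.49 and 0.33 in BD_HF, 1.52 and 0.31 in LF_HF, and 0.53 and 0.39 in LF_LF. LF_LF was thus not the highest group for either list. The brown fat genes Ucp1 and Dio2 were well above background on LF_HF replicate 1 only. The list of 6 brown fat markers also holds Cox8b, Cox7a1 and Ppara, a gene abundant in hepatocytes. Its median log2 signal was -4.31 and -4.06 in VAD_VAD, -4.19 and -3.82 in BD_HF, -1.82 and -4.33 in LF_HF, and -1.68 and -1.53 in LF_LF. On every array but LF_HF replicate 1 this median lay midway between Cidea and Cox8b, so it is not independent of Cox8b. The summed signal, in which Ppara was the brightest gene, was not highest in LF_LF. It was 31.8 and 38.3 in VAD_VAD, 54.2 and 57.7 in BD_HF, 25.0 and 35.3 in LF_HF, and 20.3 and 27.3 in LF_LF. Cidea, a lipid droplet protein of brown fat that is also known from fatty liver, read -3.73 and -3.78 in VAD_VAD, -3.37 and -2.41 in BD_HF, -1.69 and -3.44 in LF_HF, and 0.02 and -0.04 in LF_LF, so that LF_LF was the highest group, as for Cox6a2. It passed in VAD_VAD against LF_LF with a difference of -3.74 (limma adjusted p = 0.0499), and was -2.55 in LF_HF (limma adjusted p = 0.0794, and -3.43 without LF_HF replicate 1) and -2.88 in BD_HF (limma adjusted p = 0.0728). The part of such cells in the values of Cox6a2 and Cox8b was not tested.

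Summed markers of 4 other liver cell classes were highest in LF_LF. Such a sum is weighted to its brightest genes, in LF_LF Col3a1 for stellate cells, Birc5 for cycling cells, Lyz2 for macrophages and Spp1 for cholangiocytes. All 8 stellate cell markers were well above background on at least 7 arrays, and their summed signal was 17.2 and 14.5 in VAD_VAD, 16.9 and 22.0 in BD_HF, 13.7 and 15.1 in LF_HF, and 49.96 and 50.69 in LF_LF. For the 6 cycling cell markers the sums were 1.56 and 2.00 in VAD_VAD, 1.36 and 1.49 in BD_HF, 1.65 and 1.08 in LF_HF, and 26.0 and 18.8 in LF_LF. For the 8 macrophage markers they were 79.5 and 122 in VAD_VAD, 87.1 and 97.8 in BD_HF, 69.6 and 61.7 in LF_HF, and 183 and 166 in LF_LF. For the 6 cholangiocyte markers they were 7.07 and 6.26 in VAD_VAD, 11.6 and 10.8 in BD_HF, 6.80 and 7.02 in LF_HF, and 18.8 and 27.7 in LF_LF. In VAD_VAD against LF_LF, 5 stellate markers (Col1a1, Col3a1, Lrat, Ngfr and Pdgfrb), 4 cycling cell markers (Birc5, Ccnb2, Cdc20 and Mki67), Trem2 of macrophages and Krt23 of cholangiocytes passed as lower. In LF_HF and in BD_HF against LF_LF, Col1a1, Col3a1, Pdgfrb, the same 4 cycling cell markers and Trem2 did, with Cd68, Lyz2, Krt19 and Spp1 in LF_HF as well. Other markers of these lists went the other way or overlapped. Clec4f of macrophages read 3.42 and 3.27 in LF_LF and was higher on every other array. Acta2 of stellate cells read 2.44 and 2.50 in LF_LF and was higher on both BD_HF and both VAD_VAD arrays. Cd5l, Csf1r, Lrat, Reln and Krt23 overlapped between BD_HF and LF_LF. Other lists were not highest in LF_LF. Hepatocyte markers summed to 6312 and 5002 in VAD_VAD, 4887 and 4590 in BD_HF, 2661 and 6349 in LF_HF, and 4004 and 3945 in LF_LF. Fgb had no value on BD_HF replicate 2. Endothelial markers summed to 38.4 and 51.1 in VAD_VAD, 42.5 and 53.8 in BD_HF, 23.3 and 13.2 in LF_HF, and 28.8 and 29.1 in LF_LF. Erythroid markers summed to 182 and 330 in VAD_VAD, 181 and 160 in BD_HF, 61.4 and 88.6 in LF_HF, and 79.96 and 83.2 in LF_LF. Neutrophil markers summed to 18.9 and 25.8 in VAD_VAD, 1.78 and 2.26 in BD_HF, 3.99 and 6.20 in LF_HF, and 4.66 and 4.45 in LF_LF, and S100a8 passed as higher in VAD_VAD. In pancreatic acinar markers Cela2a passed as higher in LF_HF, and in hepatocyte markers Cyp2e1 passed as higher in BD_HF, each against LF_LF. The part of these cells in the values of Cox6a2, Cox8b and Atp5sl, and in the member medians, was not tested.

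Subunits made from mitochondrial DNA were read from probes named ND4, CYTB, COX2 and ATP6, added to the description after the values were seen. ND4 of complex I read 8.11 and 7.59 in VAD_VAD, 7.91 and 8.21 in BD_HF, 7.21 and 8.10 in LF_HF, and 7.54 and 7.30 in LF_LF. ATP6 of complex V read 8.32 and 7.69 in VAD_VAD, 7.97 and 8.45 in BD_HF, 7.35 and 8.30 in LF_HF, and 7.54 and 7.35 in LF_LF. Neither gene passed in any comparison, nor did CYTB or COX2. All 4 differences were positive in each comparison, with medians of 0.35 in VAD_VAD against LF_LF, 0.19 in LF_HF against LF_LF, 0.36 in BD_HF against LF_HF and 0.56 in BD_HF against LF_LF. With LF_HF replicate 1 left out, the medians were 0.66 in LF_HF against LF_LF, with 4 of 4 positive, and -0.13 in BD_HF against LF_HF, with 0 of 4 positive.

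Subunits and linked proteins outside the naming rule behaved like the members, except Atpif1. Of Ndufab1, Cyc1, Cycs, Cox4i1, Atpif1 and Usmg5, 0 of 6 passed with limma in any comparison, and 1 had an unadjusted p under 0.05, in LF_HF against LF_LF. Atpif1, the inhibitor of the ATP synthase, read 4.97 and 4.89 in VAD_VAD, 4.42 and 4.88 in BD_HF, 4.14 and 4.28 in LF_HF, and 5.45 and 5.23 in LF_LF. Every array of the other diets lay below both LF_LF arrays, an order not counted over all genes. The Atpif1 difference from LF_LF was -1.13 in LF_HF (limma adjusted p = 0.134, and -1.06 without LF_HF replicate 1). It was -0.68 in BD_HF (limma adjusted p = 0.432) and -0.41 in VAD_VAD (limma adjusted p = 0.722).

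Genes that build or serve the chain gave 0 passes with limma in all 4 comparisons, for each of 7 lists. In VAD_VAD against LF_LF the medians were 0.23 for 13 complex I assembly factors and for 30 assembly factors of the other complexes, 0.48 for 18 tricarboxylic acid cycle enzymes, 0.12 for 20 regulators of mitochondrial biogenesis, 0.46 for 7 carriers and uncoupling proteins, 0.22 for 14 genes of inner membrane organisation, and 0.24 for 77 mitochondrial ribosomal proteins. All were positive, as was the median of all genes. In LF_HF against LF_LF they ran between -0.18 for the carriers and 0.20 for the complex I assembly factors. In BD_HF against LF_HF they ran between 0.23 and 0.43, and in BD_HF against LF_LF between 0.08 and 0.33. Leaving out LF_HF replicate 1, they ran between 0.17 and 0.51 in LF_HF against LF_LF and between -0.18 and 0.09 in BD_HF against LF_HF, so the direction of the last rested on that array for all lists but the carriers. Counts at an unadjusted p under 0.05 were at most 3 in a list and a comparison.

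The gene with the largest difference of each list over the 4 comparisons did not pass either. Timmdc1, a complex I assembly factor, read 0.92 and 0.45 in LF_HF, against -0.49 and -0.16 in LF_LF, a difference of 1.01 (limma adjusted p = 0.211) that was 0.77 without LF_HF replicate 1. Cox10, which makes the haem of cytochrome c oxidase, read 1.02 and -2.09 in LF_HF, against -2.72 and -2.58 in LF_LF, a difference of 2.12 (limma adjusted p = 0.285) that was 0.56 without that array. Pcx, pyruvate carboxylase, read 6.98 and 6.34 in VAD_VAD, against 5.68 and 5.66 in LF_LF, a difference of 0.99 (limma adjusted p = 0.488). None of these groups overlapped, but the genes were picked for their large differences. Both arrays were also higher for 20.9% of all genes in LF_HF and 32.5% in VAD_VAD, each against LF_LF.

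Pprc1, a coactivator of mitochondrial biogenesis, read 0.01 and -0.21 in BD_HF, against 1.16 and 1.06 in LF_LF, a difference of -1.21 (limma adjusted p = 0.279). Chchd6, a protein of cristae organisation, read -0.32 and 0.17 in LF_HF, against 0.86 and 0.74 in LF_LF, a difference of -0.88 (limma adjusted p = 0.314) that was -0.63 without LF_HF replicate 1. Mrps27, a mitochondrial ribosomal protein, read 0.82 and 1.36 in BD_HF, against 0.13 and 0.36 in LF_LF, a difference of 0.84 (limma adjusted p = 0.437). These groups did not overlap either. Of all genes, 25.9% were lower and 34.2% higher on both arrays in BD_HF, and 21.3% were lower in LF_HF, each against LF_LF. Ucp2, an uncoupling protein of many tissues, read -1.07 and -1.14 in LF_HF, against 0.58 and 0.61 in LF_LF, a difference of -1.70 (limma adjusted p = 0.110) that was -1.73 without LF_HF replicate 1.

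Slc25a4, the adenine nucleotide carrier typical of heart and muscle, had the largest difference among the carriers in VAD_VAD against LF_LF and in BD_HF against LF_HF. It read 2.83 and 2.49 in VAD_VAD, 2.18 and 2.43 in BD_HF, 1.86 and 1.38 in LF_HF, and 3.44 and 3.04 in LF_LF. All 6 arrays of the other diets lay below both LF_LF arrays, an order not counted over all genes. Its difference from LF_LF was -0.58 in VAD_VAD (limma adjusted p = 0.644), -0.94 in BD_HF (limma adjusted p = 0.310) and -1.62 in LF_HF (limma adjusted p = 0.0609, and -1.86 without LF_HF replicate 1).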

How the data were processed

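Total liver RNA from 8 samples was labelled in 1 colour and hybridised to Agilent arrays. The authors deposited linear intensity values per spot made with Agilent Feature Extraction (version 10.7.3.1 in the headers), and a series table whose intensity values equal the processed signal within 0.497%; a normalization by the authors beyond that was not given in the sources used here. From the processed signal, log2 values were computed, minus the 75th percentile of each array over non-control spots without outlier flags. Only probes flagged well above background by both arrays of some group were used (26224 of 41174), and the probe with the highest mean stood for its gene. All 8 arrays entered 1 limma 3.58.1 fit (R 4.3.3, lmFit and eBayes, 4 residual degrees of freedom), with Benjamini-Hochberg adjustment over 17267 genes and a threshold of 0.05. The script was tested on simulated data. The number of arrays, 2 per group, limits the precision. Slide and replicate number coincide, so each slide holds 1 array of every group.

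Genes named are members that passed, the 3 largest differences in each direction per comparison, 10 core subunits, and the tissue isoforms with their partners; genes of other lists are named only where they passed or had the list's largest difference in a comparison, besides the mitochondrially encoded subunits, the genes that make up a list, and markers not well above background. The members and lists were chosen with earlier results of these data known. Alternatives covered background correction, scaling, probe choice and filter, moderation, array weights, the slide block, fits of 2 groups and leaving out each array. Promoter sequences are from RefSeq (GRCm38.p6). The result of 1 member that this rule names is not reported here.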

Additional observations from a re-analysis of the deposited data

How the results depend on the processing

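With 2 arrays per group, and with LF_HF replicate 1 apart from the rest, small shifts could not be told from replicate error. The median difference of the members in VAD_VAD against LF_LF was 0.39, and it was -0.0336 with quantile scaling and -0.0376 with normexp and quantile scaling; leaving out 1 array at a time gave 0.24 to 0.54. With median scaling it was 1.16 in BD_HF against LF_HF and -0.83 in LF_HF against LF_LF, where all genes moved to 0.98 and -0.77. Leaving out 1 array gave -0.15 to 0.80 in BD_HF against LF_HF, -0.55 to 0.44 in LF_HF against LF_LF and 0.08 to 0.47 in BD_HF against LF_LF. The cause of these shifts was not tested.

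No member passed in the reported fit. The number of all genes passing also changed with the setting, including when an array was left out. For the F-test the share of all genes was counted in the reported fit alone, at 1.05%. The F-test counts below therefore stand without such a share. With normexp and the 75th percentile 2 passed in BD_HF against LF_LF, 1 in LF_HF against LF_LF, 1 in VAD_VAD against LF_LF and 2 by the F-test. With normexp and quantile scaling 2, 2, 1 and 2 passed. Of all 17267 genes, those passing as higher and as lower in these comparisons were 274 and 427, 1639 and 1023, and 105 and 256. With normexp and quantile scaling they were 308 and 564, 322 and 1086, and 89 and 300. Quantile scaling and the trended, robust moderation each gave 1 in BD_HF against LF_LF, 1 in LF_HF against LF_LF and 1 by the F-test. Of all genes, quantile scaling gave 93 higher and 245 lower in BD_HF, and 162 and 726 in LF_HF. The trended, robust moderation gave 225 and 383 in BD_HF, and 216 and 595 in LF_HF. Array weights gave 3 in BD_HF against LF_LF, 2 in VAD_VAD against LF_LF and 4 by the F-test. Of all 17267 genes, 1147 then passed as higher and 1645 as lower in BD_HF, and 371 and 793 in VAD_VAD. Fits of 2 groups gave 3 in BD_HF against LF_LF and 1 in VAD_VAD against LF_LF. Of all genes, 940 then passed as higher and 1627 as lower in BD_HF, and 86 and 408 in VAD_VAD. Requiring every array above background gave 1 in LF_HF against LF_LF, where 164 of 13927 genes passed as higher and 445 as lower. Counts of members from the fits that left out 1 array are not listed in this section, since each left a group with a single array. The cause was not tested.

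Some single genes changed sign. In BD_HF against LF_HF, Cox6a2 was -0.19 with normexp and the 75th percentile, -0.11 without BD_HF replicate 2, and leaving out 1 array gave -0.90 to 0.93. Cox6b2 was 0.0724 with normexp and quantile scaling, 0.0666 with quantile scaling, 0.78 with median scaling, 0.27 without BD_HF replicate 2 and 0.0045 without LF_HF replicate 2. Cox8b was 0.0113 with normexp and quantile scaling and 0.75 with quantile scaling, and leaving out 1 array gave -2.05 to 0.0949. Uqcr11 was 0.0043 with normexp, 0.61 with median scaling, 0.15 with the slide or replicate block, and leaving out 1 array gave -0.61 to 0.55. Leaving out 1 array gave -0.14 to 0.88 for Atp5sl, -0.083 to 0.80 for Cox7a1 and -0.13 to 1.20 for Ndufa8, the lowest without LF_HF replicate 1. In LF_HF against LF_LF, Cox8b was 0.11 with normexp and the 75th percentile, leaving out 1 array gave -2.02 to 0.13, and with median scaling Ndufs8 was -0.41 and Atp5c1-ps -0.39. In VAD_VAD against LF_LF, Atp5s was 0.0174 with median scaling and 0.14 with the mean of probes, and leaving out 1 array gave -0.16 to 0.0442. The cause was not tested.

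Same-numbered samples, which share a slide, had deviations that correlated at 0.098 to 0.305; since 1 of the 6 correlations was under 0.1, the numbers were not taken as pairs. Leaving out LF_HF replicate 1 for the lists, and the bound for Cox8b without it, were chosen after seeing the data. With the replicate block 0 of 80 members passed in each comparison, and the medians were 0.39, -0.06, 0.32 and 0.27 in VAD_VAD against LF_LF, LF_HF against LF_LF, BD_HF against LF_HF and BD_HF against LF_LF.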
